A study of Homo sapiens with 4 samples.

Results

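The 3922 sites described here were listed as N6-methyladenosine (m6A) in both control libraries of HEK293T cells and in neither library from cells given ascorbic acid. They were chosen by chromosome, position and strand, with at least 50 reads carrying A or G in both controls, and are called control-only sites below. They make up 6.02% of the 65098 sites that met these terms in the controls, out of 218950 sites listed in any library. HEK293T is a human embryonic kidney cell line; the labels call the control cells wild type and give no genetic change in either group. The 2 control and 2 ascorbic acid libraries hold mRNA assayed by GLORI, and the treated cells had ascorbic acid for 36 h from 24 h after seeding, with fresh medium at intervals of 6 h. For the controls no medium change is given, so its effect cannot be told apart from that of ascorbic acid. The labels give no dose and no separate cultures, so p-values measure only the spread between these libraries, which may be technical.

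The m6A mark is set on messenger RNA by a complex of METTL3 and METTL14 with helper proteins such as VIRMA and ZC3H13, mostly at an A followed by C within the DRACH motif. FTO and ALKBH5 remove it, and both are dioxygenases that use iron and 2-oxoglutarate; ascorbic acid is known to help keep the iron of such enzymes reduced. YTH proteins bind the mark and act on splicing, translation and decay. In long genes the mark lies mainly in long internal exons, around the stop codon and in the last exon. GLORI converts unmethylated A so that it is read as G, and the m6A level of a site is the percent of its A and G reads that carry A.

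Sequence could be read for the 45 control-only sites that lie in RefSeq's windows around gene starts (GRCh38.p14, 250 bases before to 50 after the start). All 1549 deep control sites inside such windows had A at the listed base. The 8 control-only sites of highest level there are shown because they give the surroundings of the mark. Of all 45, 26 (57.8%) lay before the window gene's annotated start, against 39.7% of the sites of like level and depth listed in all 4 libraries; whether they belong to other transcripts was not tested. Among the 8 printed, only those of RPL9 and MORN2 lie at or after that start, and the NHLRC2 site lies in the window of LOC124902506. Each line runs 5′ to 3′ on the RNA's strand, in DNA letters, with the listed A at the centre of the 5 capitals.
DDX42 (chr17:63774011-63774031, + strand): tgggtcatGAACActgtccac
RPL9 (chr4:39458912-39458932, - strand): taatgacgACAGAcgttcttt
MORN2 (chr2:38875993-38876013, + strand): cccagcaaCCAAGtcgcacct
FAM156B (chrX:52897950-52897970, + strand): atacgactAGACAtgcgttta
NHLRC2 (chr10:113858614-113858634, + strand): tgctgcatAAACTgtattcac
PPP2R3C (chr14:35122116-35122136, - strand): cgcggcagTGACAgtaattgt
No named gene, window of GNB2 (chr7:100673607-100673627, + strand): tagggtgaGAACCttgggagc
APEH (chr3:49674187-49674207, + strand): cccacccaGGACTtctcgctc

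The A was followed by C (NNACN) at 27 of the 45 control-only sites in these windows, or 60%. Sites of like level and depth listed in all 4 libraries had that pattern at 30.9%, and they more often lay on the start base itself, at 20.8% against 4 of 45 (8.89%). GGACN surrounded 8 of the 45 (17.8%), against 5.51% of the like sites, and GGACT surrounded 3. On both strands, 44.2% of all 35116 windows hold GGACT and 87.4% hold GGACN, which includes GGACT, while all of them hold NNACN, so these shares describe the listed base and not the windows. The windows take in 1.15% of the control-only sites, and the sequence of the others was not analysed here. The printed sites had low to moderate levels. The site in DDX42, an RNA helicase gene, stood at 24.1% in control 1 and 16.7% in control 2, on 54 reads in each. The site on the start base of RPL9, a ribosomal protein gene, stood at 17.4% and 20.3%. The GGACT site of APEH, a peptidase gene, stood at 13% and 17.6%.

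The 4 libraries listed 132989 to 144171 sites. No list holds a site with fewer than 15 A and G reads, fewer than 5 A reads or a level under 10%. A site that is not listed may thus have a level from 0 up to about that limit, or too few reads. Some high sites were also absent from the other library of their group, as given below, so absence alone does not bound the level. The median unconverted share over genes was 3.88% in control 2, against 2.51% in control 1 and 2.72% and 2.87% with ascorbic acid, so control 2 stands apart. Of 9 genes fixed as marks of HEK293T or embryonic kidney and neural-like cells, 7 were listed in all 4 libraries, with a summed scaled coverage of 2847 to 3781. None of the 6 adult tubule, 3 endothelial and 2 hepatocyte markers was listed, and no immune or fibroblast marker was listed in all 4.

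Control-only sites were mostly weakly methylated. Their median level was 12.5% in control 1 and 13.7% in control 2, and the mean of both controls ran from 10.0% to 97.6% with a median of 13.2%. In all, 2731 sites (69.6%) averaged under 15% and 3569 (91.0%) under 20%. A further 272 lay at 20 to 30%, and 81 lay at 30% or more, of which 9 reached 80%. The difference between the controls had an SD of 3.51 points over sites, and control 2 was higher at 65.7% of them. The sites of like level and depth listed in all 4 libraries showed the same lean, with control 2 higher at 68.9%. Median depth was 158 reads in control 1 and 160 in control 2. Just inside the read minimum, at 50 to 54 reads, 203 sites had a median level of 16.0%; just outside, at 45 to 49 reads, 217 sites had 16.7%.

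**Figure D1:**
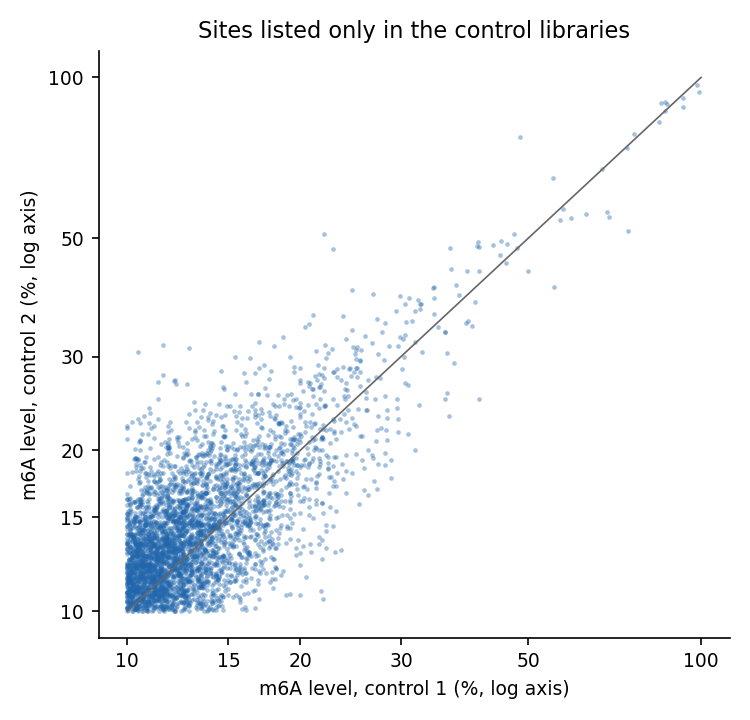
m6A level in control 1 (x axis, percent, log scale) against control 2 (y axis, percent, log scale), with 1 point per control-only site and a line of equal level. Most of the 3922 points crowd between 10% and 15%, 81 average 30% or more, and more points lie above the line than below it.

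The share of control sites that were listed in neither ascorbic acid library fell steeply with the control level. It was 51.0% of sites at 10 to 11%, 29.8% at 12 to 13%, 15.8% at 14 to 15% and 8.64% at 15 to 20%. Above that it was 3.03% at 20 to 25%, 0.599% at 30 to 40% and 0.0970% at 80 to 100%. A further 5306 sites were listed in 1 ascorbic acid library, where their median level was 12.4%, against a median of 14.8% over the controls. The same rule with the groups exchanged gave 2090 of 68368 sites (3.06%) that were listed only with ascorbic acid. Near the limit these were fewer, at 19.1% of sites at 10 to 11% and 2.71% at 15 to 20%. At 30% or more the order turned, with 219 sites (0.680%) listed only with ascorbic acid and 81 (0.240%) listed only in control. These counts are set by the rule and carry no test.

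**Figure D2:**
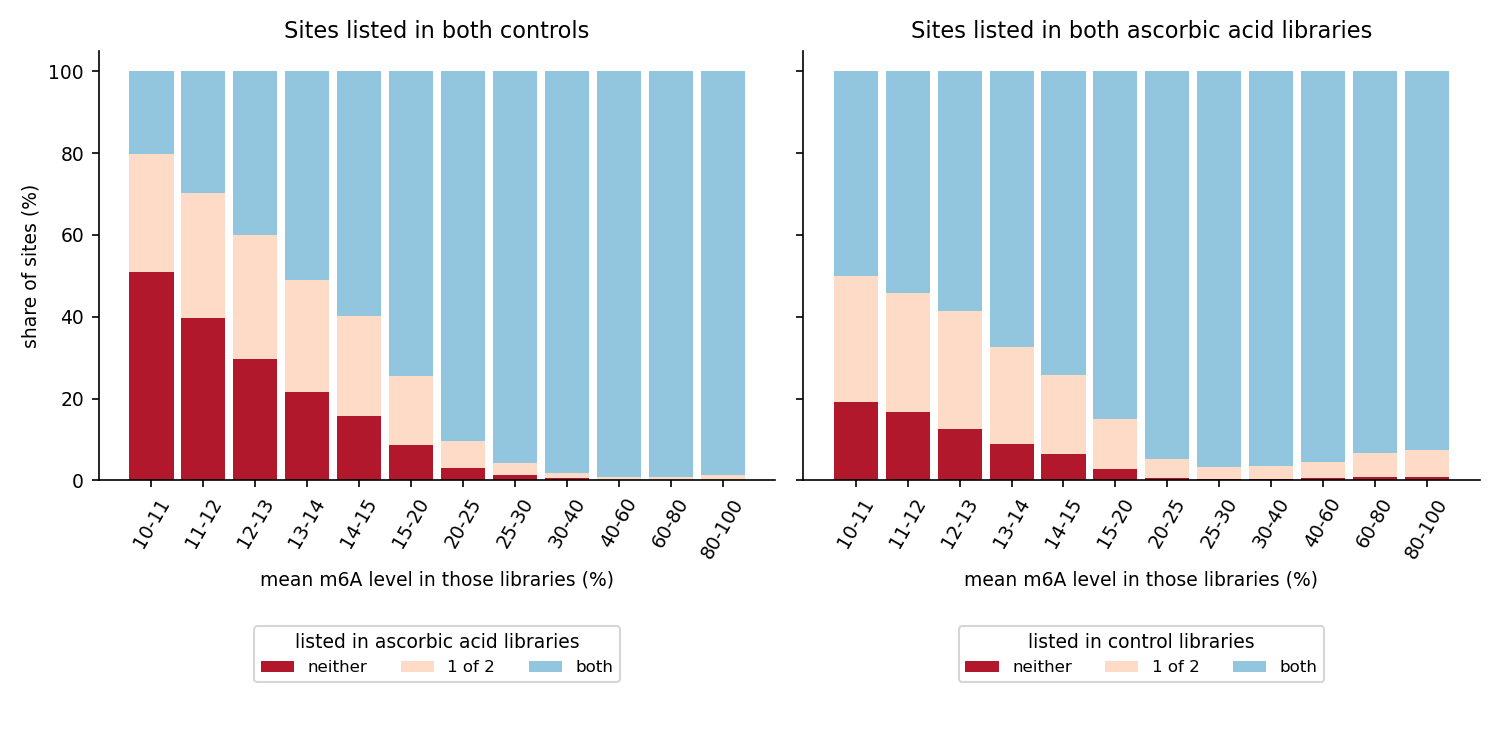
Share of sites (y axis, percent) by mean m6A level (x axis, percent) that were listed in neither, 1 or both libraries of the other group. The left panel starts from the 65098 control sites and the right panel from the 68368 ascorbic acid sites; the dark bars of the lowest class reach 51.0% and 19.1%.

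Libraries of the same group also failed to share many weak sites. Among sites at 10 to 15% whose depth in the other library was estimated at 50 reads or more, 52.2% of those in control 2 were not listed in control 1, and 30.0% of those in control 1 were not listed in control 2. Between the ascorbic acid libraries the shares were 36.3% and 31.3%. From control to ascorbic acid libraries the shares ran from 42.5% to 51.6%. These lie above those of the ascorbic acid pair and within the range of the control pair. At 30% or more, 4.91% of the sites in control 1 were not listed in control 2 and 0.267% in the other direction; between the ascorbic acid libraries it was 1.79% and 0.916%. From control to ascorbic acid the shares at that level ran from 0.748% to 1.94%, within the range between the controls. In the other direction, 5.30% and 5.13% of the sites in ascorbic acid 1 and 2 were not listed in control 2. For control 1 these shares were 1.40% and 1.15%. The part of control 2's missing high sites in the 219 listed only with ascorbic acid was not tested. At 60 to 100%, 6.26% of the sites in control 1 were not listed in control 2, and 0.342% in the other direction. Between the ascorbic acid libraries these shares were 2.71% and 1.20%. A high site can thus be missing from a list, and why was not tested. The part of control 2's higher unconverted share in these counts was not tested.

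Depth in the ascorbic acid libraries could be estimated where a site listed in all 4 libraries lay within 50 nt. At 27858 sites where the true depth is known, the estimate over the observed depth had a median of 1.00, with 0.856 and 1.20 at the 5th and 95th percentiles. Such a neighbour existed for 1191 control-only sites, and 1172 of them (98.4%) had an estimated 50 reads or more in both ascorbic acid libraries. For the 1145 sites with a computable listing limit, the limit had a median of 10.3%. At 1133 of them the control mean lay above it, by a median of 2.46 points over all 1145. It lay more than 5 points above at 261 sites, more than 10 at 86 and more than 20 at 33. Listing in both controls already puts each control level at 10% or more, so these counts are largely set by the rule.

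The marks around control-only sites fell more often with ascorbic acid than marks elsewhere. Sites listed in all 4 libraries within 100 nt on the same strand were not used by the rule, and 2984 of them, beside 1745 control-only sites, could be tested. Their median level was 37.3% in control 1 and 38.8% in control 2, and 28% and 28.1% in the ascorbic acid libraries. Both ascorbic acid medians lay below both control medians. In the quasi-likelihood test of edgeR, run on the reads of both bases and adjusted over all 78509 tested sites, 1219 flanking sites (40.9%) fell, 6 rose and 1759 did not pass. Of all tested sites 25.7% fell and 0.220% rose. Most tested sites had a lower mean with ascorbic acid whether or not they passed, 82.9% of all and 88.7% of flanks. The median change was -4.89 points over all tested sites and -6.36 points over flanks. Averaged per control-only site, 42.8% of flanks fell, and the mean change over all flanks was -10.6 points. Around sites of like level and depth listed in all 4 libraries, 24.4% fell, and the mean change was -5.22 points. Flanks may share reads with the control-only site, and the like sites were chosen by staying listed with ascorbic acid. The excess may therefore not be independent of the rule.

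This excess appeared at each flank level and for each level of the control-only site. Among flanks at 20 to 40% in control, 30.3% fell against 13.9% of all tested sites of that level. Among flanks at 80 to 100%, 73.3% fell against 57.3%. These shares by flank level were not matched for depth. With 50 reads or more for every tested site, 44.4% of flanks fell against 31.7% of all tested sites. Per site, 40.0% of flanks fell around control-only sites at 10 to 15%, 45.1% at 15 to 20%, 60.2% at 20 to 30% and 56.3% at 30% or more. The values around sites listed in all 4 libraries were 23.8%, 24.9%, 26.8% and 29.8%. Flanks of the sites listed only with ascorbic acid fell at 27.3% in all, with 23.6%, 24.2%, 37.1% and 41.1% in the same level classes. These classes use the level with ascorbic acid. The sites listed in all 4 libraries were classed by control level and weighted to the control-only sites, so the sets are not matched. At 20% and above the sites listed only with ascorbic acid also had more flanks that fell than sites listed in all 4 libraries, on 29 and 157 sites. DESeq2 called fewer falls, 764 (25.6% of flanks against 12.7% of all tested sites), and limma 694 (23.3% against 13.3%). Without control 2 the count was 954 (32% against 17.2%).

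For the 81 control-only sites at 30% or more, a level chosen after the values were seen, 34 had a tested neighbour within 50 nt. The neighbour fell at 20 of them, rose at 0 and did not pass at 14 by edgeR's test. No neighbour rose at an unadjusted p under 0.05 either, nor by DESeq2 or limma, which called 15 and 18 falls. Among sites of that level listed in all 4 libraries, 30.2% of nearest neighbours fell. The estimated depth was 50 reads or more in both ascorbic acid libraries for 33 of the 34, and the control level exceeded the listing limit by 19.4 to 85.3 points. That margin follows from the choice of level and does not give the level with ascorbic acid. The neighbours' changes ranged from -62.1 to 2.41 points. At 15 the fall exceeded 20 points, and at 15 the change was within 10 points.

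Large falls beside a control-only site were seen in several genes. In TBC1D16, which encodes a Rab GTPase-activating protein, the control-only site (chr17:80010253) stood at 67.2% in control 1 and 67.5% in control 2. Its neighbour 6 nt away went from 57.6% and 55.4% to 11.5% and 11.7% (log2 odds ratio -3.29, adjusted p = 1.1e-15, edgeR). The groups did not overlap, and the level that remained lay close to the listing limit. In SUGP2, a splicing-related gene, the control-only site (chr19:19024892) stood at 45.7% and 44.8% on 599 and 747 reads. Its neighbour 4 nt away went from 78.6% and 77.3% to 15.2% and 16.3% (log2 odds ratio -4.23, adjusted p = 2.7e-26, edgeR). In WNK1, a kinase gene, the control-only site stood at 29.4% and 36.5%, and the neighbour went from 54.3% and 52.0% to 10.6% and 13.3%. The pattern was the same in CDK16, a cyclin-dependent kinase gene, where the neighbour 6 nt away went from 34.3% and 39.2% to 14.6% and 14.2%. The fit without sites 6 nt apart leaves out the TBC1D16 and CDK16 neighbours, so it gives no value for them. In KLHL22, an adaptor of a CUL3 ubiquitin ligase, the control-only site stood at 31.3% and 34.9%, and the neighbour went from 79.6% and 72.9% to 31.1% and 29.1%. BSDC1 and MCM3AP neighbours fell from means of 67.4% and 63.7% to 25% and 23.4%. All of these calls also passed with DESeq2, with limma and without each library in turn.

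**Figure D3:**
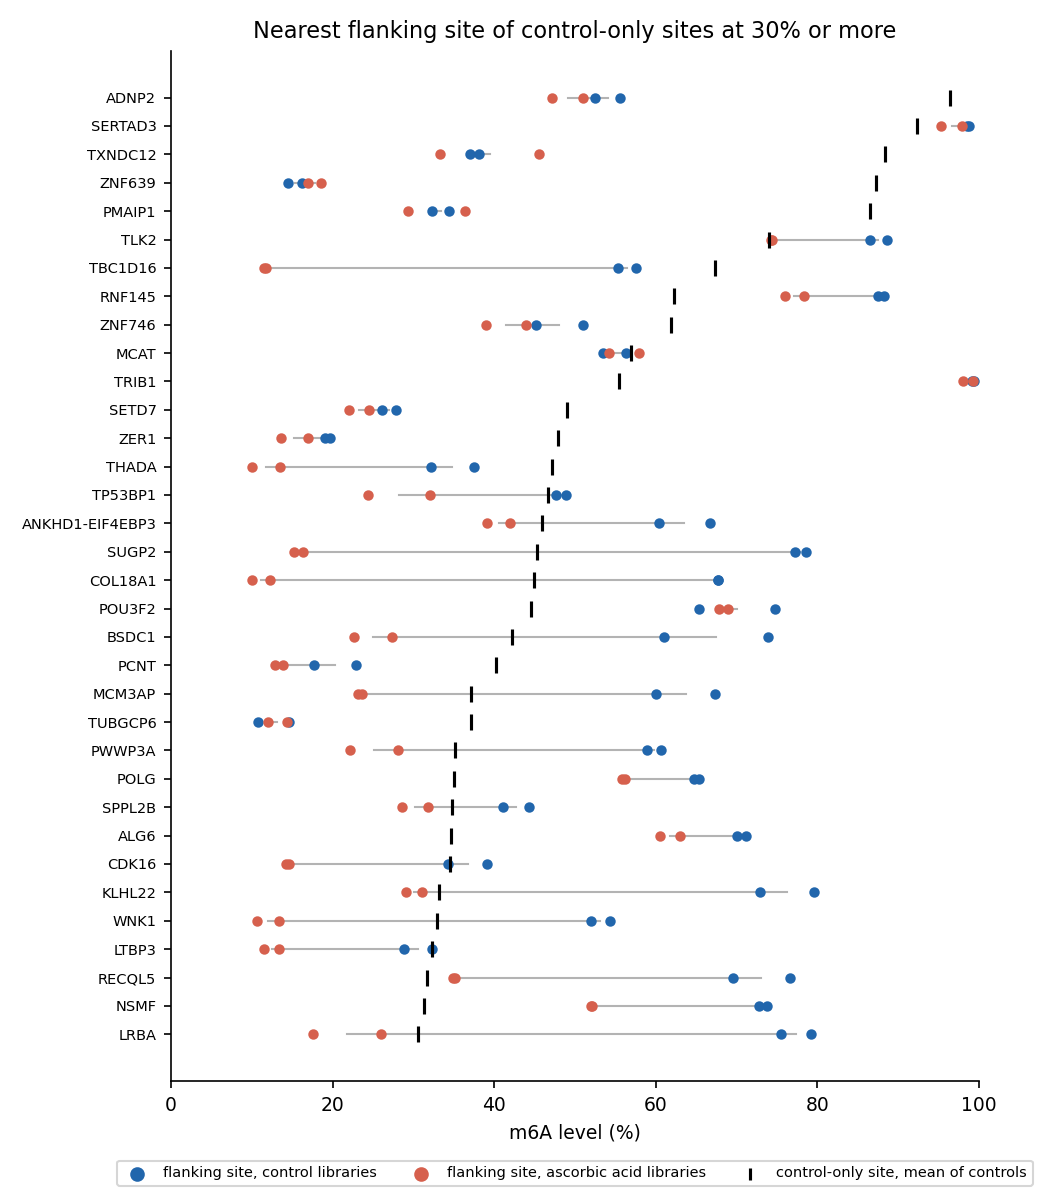
m6A level (x axis, percent) of the nearest flanking site in each control library (blue) and each ascorbic acid library (red) for the 34 control-only sites at 30% or more with a neighbour within 50 nt, ordered by the control-only site's own mean level (black tick). Below 60% most red points lie well to the left of the blue ones, while for ADNP2, SERTAD3, TXNDC12, ZNF639 and PMAIP1 at the top they lie close together.

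The neighbours of some other highly methylated control-only sites did not pass. Of the 9 sites at 60% or more with a neighbour, 3 neighbours fell, in TBC1D16, TLK2 and RNF145, against 17 of 25 at 30 to 60%, and this difference was not tested. Below 60%, too, neighbours such as those of MCAT (54.9% in control and 56.1% with ascorbic acid, as means) and TRIB1 (99.2% and 98.6%) did not pass. The 10 highest sites lay in KMT2D, ADNP2, SERTAD3, DDI2, TXNDC12, C3orf38, ZNF639, PMAIP1, a place with no named gene (chr16:89300604) and MSL2, from 97.6% down to 77.3%. The site of KMT2D (chr12:49038183), a histone methyltransferase gene, stood at 98.4% and 96.7% on 64 and 60 reads, with no neighbour to give the depth under ascorbic acid. In ADNP2, a homeobox gene, the control-only site stood at 99.2% and 93.8%. Its neighbour 24 nt away stood at 55.6% and 52.5% in the controls and 47.2% and 51.0% in the treated libraries (adjusted p = 0.40, edgeR). In SERTAD3 the control-only site stood at 92.9% and 91.7%. Its neighbour stood at 98.8% and 98.6% in the controls and 98.0% and 95.3% in the treated libraries (adjusted p = 0.20, edgeR). In PMAIP1, which encodes the pro-apoptotic protein NOXA, the control-only site stood at 86.7% and 86.3% on 180 and 161 reads. With ascorbic acid its neighbour gave 29.4% and 36.4%, overlapping 32.3% and 34.4% in the controls. In ZNF639, a zinc finger gene, the control-only site stood at 85.1% and 89.4%, and its neighbour at 14.5% and 16.2% in the controls and 16.9% and 18.6% in the treated libraries. The neighbour of TLK2, a kinase gene, fell from 88.6% and 86.5% to 74.3% and 74.3% (adjusted p = 0.013, edgeR), a call that DESeq2 did not make (adjusted p = 0.17) and that was lost without control 1, ascorbic acid 1 or ascorbic acid 2 (adjusted p from 0.059 to 0.10). Estimated depth under ascorbic acid was 171 and 209 reads at the PMAIP1 site, 147 and 136 at ADNP2 and 145 and 170 at ZNF639.

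The most deeply read control-only sites lay close to the limit. The deepest, in the ribosomal protein pseudogene RPL4P2, stood at 10.9% and 12% on 14738 and 17425 reads. The site in its parent gene RPL4 stood at 10.8% and 11.9%; reads of these near-identical copies could be shared, so both values are uncertain. NME1-NME2 is a read-through of a pair of nucleoside diphosphate kinase genes, and its site stood at 10.1% and 12.5%. TRIR, TRMT112, KHSRP and NDUFAF3 gave means of 10.4% to 12.3%. For TRIR an estimated 10557 and 10530 reads lay over the site with ascorbic acid, and its neighbour 10 nt away fell from 12.9% and 14.5% to 11.4% and 11.8% (adjusted p = 0.011, edgeR). These means lie within 3 points of the 10% limit.

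Control-only sites lay farther from the 3′ end of genes than sites of like level and depth. Of the 3517 in protein-coding genes with a known span, 1599 (45.5%) lay over 5000 nt before the annotated 3′ end, measured along the genome with introns, against 35.1% of the like sites listed in all 4 libraries. The median distance was 3859 nt against 2866 nt. The gap was larger above 15% than below. Over 5000 nt away lay 39.4% of control-only sites at 10 to 15%, 55.3% at 15 to 20%, 66.8% at 20 to 30% and 67.1% of the 76 at 30% or more. The shares for the like sites stayed between 33.4% and 35.4%. With a distance of 1000 nt in place of 5000 the shares were 76.7% and 75.6%. Sites listed only with ascorbic acid also often lay over 5000 nt away (45.6%). By their level with ascorbic acid, however, the share was 47.0% at 10 to 15% and 41.2% at 30% or more. No p is given, since sites of a gene are not replicates, and whether position and the flank falls go together was not tested.

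**Figure D4:**
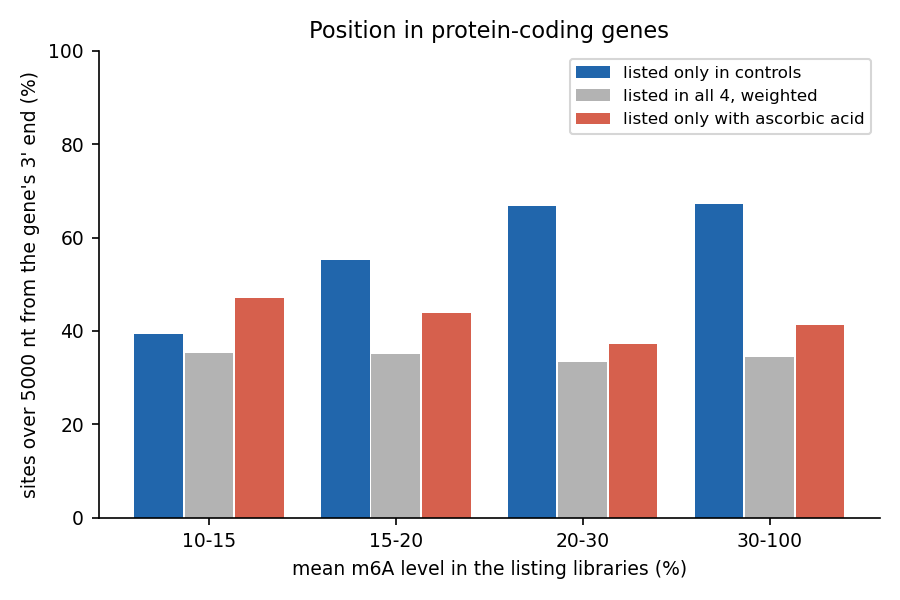
Share of sites in protein-coding genes lying over 5000 nt from the annotated 3′ end (y axis, percent) by mean m6A level (x axis, percent), for control-only sites, sites listed in all 4 libraries weighted to the same level and depth, and sites listed only with ascorbic acid. Levels are those in control, except for the sites listed only with ascorbic acid, where they are those with ascorbic acid. The bars of control-only sites climb from 39.4% to 67.1%, the weighted bars stay near 35%, and the bars for ascorbic acid go from 47.0% to 41.2%.

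Control-only sites were more isolated than like sites. Another control site lay within 50 nt of 37.0% of them, against 49.3% of the sites of like level and depth. A partner at a distance of 6 nt on the same strand was listed for 3.06%, against 16.2%. By gene type, 90.0% lay in protein-coding genes against 86.9% of the like sites, 1.38% in long noncoding RNA genes against 1.02%, and 3.34% in pseudogenes against 3.40%. A place with no named gene held 182 sites (4.64%), against 8.09% of the like sites.

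The sites were spread over 2744 of the 9566 genes with a deep control site. Of these genes 2068 held 1 control-only site, 470 held 2 and 206 held 3 or more. In 238 genes every deep control site was control-only, but only 26 of these genes had 2 or more such sites. FKBP10, a collagen chaperone gene of the endoplasmic reticulum, held the most, with 9 of its 16 deep sites. They ranged from 10.9% to 20.7%, on 213 to 3123 reads, and 8 of them lay in the last 1000 nt of the gene. Between them, the site at chr17:41822474 fell from 93.0% and 94.4% to 73.1% and 71.8% (log2 odds ratio -2.50, adjusted p = 4.3e-14, edgeR). XIST and DYNC1H1, the heavy chain of cytoplasmic dynein, held 8 each, at 10.3% to 13.4% and 10.9% to 19.1%. TUBGCP6, a subunit of the microtubule nucleation complex, held 7, of 12.2% to 59.3%, and SRRM2, a scaffold of nuclear speckles, held 6, of 10.7% to 14.4%.

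HECTD4, a ubiquitin ligase gene, held 8 of its 22 deep sites as control-only, and 4 of them lay within a stretch of 111 nt, 159136 nt or more before the 3′ end. Their means there were 13.2%, 21.7%, 14.9% and 12.8%. The site among them that was listed in all 4 libraries (chr12:112319399) fell from 67.9% and 64.7% to 12.6% and 18.7% (log2 odds ratio -3.41, adjusted p = 2.8e-11, edgeR). Within 1000 nt of the 3′ end of the same gene, all 3 tested sites fell: chr12:112160626 from 93.3% and 92.9% to 76.6% and 80%, chr12:112160959 from 62.5% and 77.8% to 45.9% and 44.2%, and chr12:112161189 from 88.7% and 90.5% to 66.2% and 66.9%. Just beyond, the tested sites at 1170, 1234 and 1485 nt from the 3′ end did not pass. Those at 1918 and 2068 nt fell, and that at 2036 nt did not pass. The difference between the falls near the 3′ end and the internal ones was not tested.

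FTO, the demethylase gene, held 4 control-only sites in a stretch of 301 nt (chr16:53826152 to 53826453), 295488 nt or more before its 3′ end. In control 1 and control 2 they stood at 10.9% and 13.5%, 29.6% and 24.1%, 16.9% and 25.5%, and 18.5% and 20.7%, in order along the gene. The levels were moderate, and the depth was 51 to 129 reads. Of the 4 tested sites in that stretch or within 200 nt of it, 3 fell. The strongest change was at chr16:53826315, which went from 77.0% and 69.2% to 19.8% and 17.8% (log2 odds ratio -3.64, adjusted p = 9.3e-11, edgeR). The site at chr16:53825982 fell from 30.8% and 33.6% to 14.4% and 13.3%. The site at chr16:53826069 fell from 26.8% and 25.6% to 15.2% and 17.6% (adjusted p = 0.0056, edgeR), a call not made by DESeq2 (adjusted p = 0.11) or limma (adjusted p = 0.073), nor without ascorbic acid 1 (adjusted p = 0.083). The site at chr16:53826208 stood at 35.5% and 38.8% in the controls and 27% and 30.9% in the treated libraries, and did not pass. Nearer the 3′ end, FTO's sites at chr16:54111882 and chr16:54112262 did not pass: they stood at 16.6% and 13.8% against 15.1% and 10.6%, and at 23.6% and 20.0% against 20.3% and 23.6%.

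COL18A1, which encodes the chain of collagen XVIII, also held close control-only sites, 45098 nt or more before its 3′ end. There 3 control-only sites stood at 55.2% and 64.9%, 24.7% and 31.3%, and 40.8% and 49.2%. The site beside them at chr21:45468671 fell from 67.7% and 67.7% to 10.1% and 12.3% (log2 odds ratio -4.03, adjusted p = 1.5e-18, edgeR). The next tested site stood at 26.2% and 19.5% in the controls and 20.3% and 21.6% in the treated libraries, and did not pass. Nearer the 3′ end, COL18A1 sites fell as well, unlike those of FTO. The site at chr21:45513358 went from 66.7% and 65.5% to 17.0% and 20%, and chr21:45513429 from 90% and 84.4% to 55% and 58.3%. Those at chr21:45512493 and chr21:45513156 also fell, while chr21:45512604 and chr21:45512763 did not pass. A further control-only site there (chr21:45512699) stood at 10% and 10.4%. PHF8, a histone demethylase gene of the JmjC family, held 3 control-only sites within 500 nt, with means of 16.2%, 15% and 26.2%. The neighbour of the last fell from 53.2% and 56.6% to 37.9% and 30.6%. A tested site between them (chrX:54044163) stood at 13.8% and 25.9% in the controls and 10.9% and 14.6% in the treated libraries, and did not pass.

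**Figure D5:**
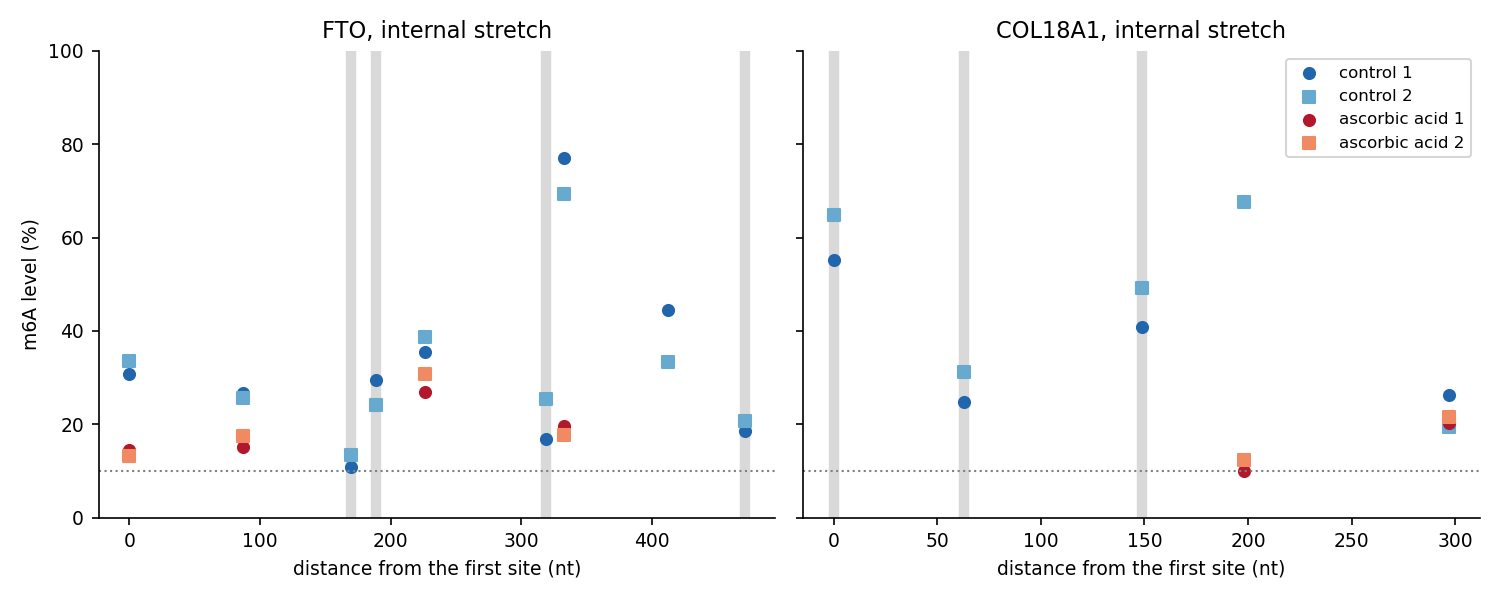
m6A level (y axis, percent) in each library along internal stretches of FTO (left) and COL18A1 (right), by distance from the first site (x axis, nt). Grey bands mark control-only sites, which carry control points alone, and the dotted line is the 10% limit; the tallest control points, 77.0% and 69.2% in FTO and 67.7% in COL18A1, stand above ascorbic acid points near 20% and 11%.

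Among the genes of m6A itself, the writers and readers held control-only sites at about the overall share. The writer list held 7 among 168 deep control sites (4.17%) and the reader list 9 among 139 (6.47%), beside 6.02% overall. ZC3H13 held 3 writer sites. That at chr13:45989010 stood at 28.3% and 21.8%, and the site beside another of them fell from 24.6% and 26.7% to 15.4% and 12.3%. METTL16, which methylates the U6 RNA, had a site at 25% and 28.6%. The METTL14 site stood at 10.3% and 12.2%, and its neighbour 5 nt away stood at 45.3% and 35.4% in the controls and 30.0% and 37.4% in the treated libraries, with overlap. The VIRMA site stood at 13.4% and 10.1%, and its neighbour fell from 25.9% and 28.4% to 21.2% and 17.4% (adjusted p = 0.035, edgeR), a call lost with DESeq2 (adjusted p = 0.31), limma (adjusted p = 0.16) and without each library in turn (adjusted p from 0.059 to 0.34). METTL3, WTAP, RBM15, YTHDF2, YTHDF3, YTHDC1 and YTHDC2 held none. The reader IGF2BP3 had a site at 20.7% and 24.3%, whose neighbour fell from 50.0% and 60.3% to 20.5% and 22.7% (log2 odds ratio -2.11, adjusted p = 3.2e-06, edgeR). IGF2BP1 had sites at 19.4% and 24.9% and at 15% and 14.7%, and YTHDF1 at 14.1% and 12.6%.

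The list of erasers and other ALKBH genes held 7 among 58 (12.1%), of which 4 are the FTO sites, 2 lie in ALKBH5 and 1 in ALKBH3. The ALKBH5 sites stood at 10.7% and 11.3% on 2319 and 3125 reads, and at 15.4% and 12.1%. The TET and JmjC dioxygenases held 11 among 196 (5.61%), in KDM3B, KDM5C, KDM6A, PHF2, PHF8 and RIOX2. Collagen and HIF hydroxylases held 5 among 119 (4.20%), in P3H4, PLOD3 and VHL. Both sites named in P3H4 were weak, with means of 14.7% and 12.7%, and their neighbours did not pass. Iron handling genes held 7 among 103 (6.80%), among them sites of NFS1, which supplies sulfur for iron-sulfur clusters, at 21.9% and 21.2% and at 13.7% and 11.9%. Except for the erasers, the shares lie near 6.02%, and no list was tested.

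Few genes of control-only sites changed in coverage. The gene coverage column, scaled per library, was tested with limma on log2 values with 1 added. Of 2644 such genes, 10 (0.378%) were higher with ascorbic acid, 1 was lower and 2633 did not pass, where 0.253% of all 11848 genes were higher and 0.0422% lower. Their median log2 difference was 0.013, with 90% of them between -0.16 and 0.22. The only lower gene was SP9, a transcription factor gene, at 57.4 and 54.0 in the controls and 37.4 and 38.4 in the treated libraries (log2 difference -0.54 ± 0.06 SE, adjusted p = 0.036, limma). The higher genes were ZCCHC12, SPATA20, FBXL5, TUBB2B, SPARC, COL6A1, COL6A2, PLAT, CLU and QPRT, named after their values were seen. ZCCHC12 had the largest difference, from 143 and 138 to 258 and 259. FBXL5, an iron-sensing ubiquitin ligase subunit, went from 128 and 128 to 211 and 202 (log2 difference 0.69 ± 0.06 SE, adjusted p = 0.017, limma). SPARC, a collagen-binding matrix protein gene, went from 147 and 147 to 234 and 225. Only 1 of the 3633 control-only sites in tested genes lay in a lower gene, and 15 lay in higher ones. Without control 1 the counts were 55 higher (2.08%, beside 1.96% of all genes) and 18 lower (0.681%, beside 1.02%), so the shares moved with those of all genes. Without ascorbic acid 1 they were 2 and 0, beside 3 and 2 of all genes, and without ascorbic acid 2 they were 5 and 0, beside 14 and 4.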

How the data were processed

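Each of the 4 libraries came as its own list of called sites. For each site the authors deposited unscaled read counts, of both bases together and of A. Their level, a fraction given by the authors, is the A count over the count of both, and the authors' conversion rate is a second fraction, per gene. The deposited gene coverage is a signal of the authors whose unit no source defines. The p-value of each site is the authors' and, as recomputed from the deposited reads, is a one-sided binomial tail of the A reads against the unconverted share; the largest is 0.004. Trimmomatic 0.39 and STAR stand in the submitters' processing notes, beside hg38 and GRCh38 as builds. The site caller is not given in the sources. The reads at listed sites sum to 22592887 to 28562744 per library, and the median site has 66 to 72.

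Control-only sites and the gene lists were chosen with earlier results of these data known. Sites listed in all 4 libraries were weighted to the level and depth classes of the control-only sites (10 by 6 classes). Sites with 20 reads or more in every library were tested with edgeR 4.0.16 (terms for libraries, and treatment as an effect on the A odds), and gene coverage with limma 3.58.1 (trended eBayes, median-ratio scaling). Both tests are two-sided with Benjamini-Hochberg adjustment over all sites or genes and a threshold of 0.05. They were also run on simulated data, with only binomial spread between libraries for sites and the same SD for every gene. Those data cannot show how the tests behave under the real spread between libraries. DESeq2 1.42.0 and limma on log2 odds, other read minimums and distances, the replicate number as a block and leaving out each library were tried as alternatives. Depth with ascorbic acid was estimated from the nearest site within 50 nt listed in all 4 libraries, by the ratio of reads in the controls. Gene types and ends come from RefSeq (GRCh38.p14), which held 9430 of 9566 gene names. R 4.3.3 and Python 3.11.15 were used, with pandas 2.3.3, numpy 2.4.6, matplotlib 3.10.9 and scipy 1.17.1.

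Named sites are the 10 highest and the 8 deepest, 1 per gene; the 6 genes with most sites; the 6 highest with a neighbour of 50 reads or more; those in fixed m6A genes; up to 3 per list; and those with a printed sequence. TBC1D16, SUGP2, WNK1, CDK16, KLHL22, BSDC1, MCM3AP, COL18A1, MCAT and single sites of FTO, FKBP10 and HECTD4 were named after their values were seen. Some sites that these rules name are not reported here.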

Additional observations from a re-analysis of the deposited data

How the results depend on the processing

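Of the 3922 control-only sites, 2583 had 100 reads or more in both controls and 237 had a level of 20% or more in both; with no read minimum there were 6664. Rules that leave out control 1, control 2, ascorbic acid 1 or ascorbic acid 2 gave 17045, 9279, 6371 and 6779 sites. The median level was 16.1% with no read minimum, 9.87% with the unconverted share subtracted, and 12.1% to 13.9% when a library was left out. The 1219 flanks that fell became 764 with DESeq2, 694 with limma, 311 within 25 nt, 635 within 50 nt, 2088 within 200 nt, 284 beside sites of 15% or more in both controls (chosen after seeing the data) and 868 to 1081 without a library. The 6 that rose became 0 with DESeq2, with limma and without sites 6 nt apart, 1 beside sites of 15% or more, and 0 to 6 without a library. The difference in the share over 5000 nt from the 3′ end was 10.3 points, and 1.09 points with 1000 nt. Coverage calls without a library ran from 2 to 55 higher and 0 to 18 lower, beside 3 to 232 and 2 to 121 of all genes. With the replicate number as a block, 1243 flanks fell and 6 rose, 20 neighbours of sites at 30% or more fell, and 14 genes were higher and 1 lower in coverage. The labels give replicate numbers only, and deviations of same-numbered libraries correlated at -0.0053 over sites and -0.16 over genes; with the numbers crossed, a fit added after seeing the data, 17 genes were higher and 1 lower. The causes were not tested.

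Of 30 named neighbours, 21 passed. For these, 96 alternatives that change a setting kept the call and 8 lost it, and 74 that leave out a library kept it and 10 lost it. The other 9 did not pass; none of 44 alternatives that change a setting passed, and of those that leave out a library 1 passed, 30 did not pass with the same sign and 5 changed sign without passing: TXNDC12 at -0.27 without ascorbic acid 2 (up to 0.47 without another library), PMAIP1 at 0.056 without control 2 and 0.20 without ascorbic acid 1 (down to -0.26), and MCAT at -0.021 without control 1 and -0.040 without ascorbic acid 1 (up to 0.18), as log2 odds ratios. Beyond those named above, HECTD4 and FKBP10 neighbours lost calls. The lists omit levels under 10%, so the level of a control-only site under ascorbic acid is not known. Where depth could be estimated, the listing limit is a bound only if every site above it was listed. That did not hold for some high sites between libraries of a group.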
